A study of Mus musculus with 140 samples.

Results

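The genes described here build ribosomes. They are 40 genes for subunits of RNA polymerase I, for the proteins of the small nucleolar particles that modify ribosomal RNA, and for the factors that assemble the small and the large ribosomal subunit, and they were taken by symbol from a list made by function, with no threshold on a measured value. Of the 40, 39 passed the filter on low counts (2 counts or more in 0.5 or more of every genotype's libraries), among 10263 genes tested of the 10489 listed for all 3 genotypes. *Ubtf*, which encodes an architectural factor of the ribosomal RNA gene promoter, was not tested. It was listed for PerDKO and Bmal1-/-, with a median of 2 counts per library in each and at most 12 and 7. Livers were taken every 4 h between CT0, when the first subjective day began, and CT44, from C57BL/6 males 3 months old that were kept in constant darkness with food at all times after housing in light-dark cycles. The 3 groups were PerDKO mice, which lack functional *Per1* and *Per2* of the negative limb of the clock (46 libraries), Bmal1-/- mice, which carry a null allele of *Arntl*, the gene of the clock activator BMAL1 (46 libraries), and WT mice (48 libraries). Both knockouts are germline and reach every tissue, feeding behavior included, and for Bmal1-/- a housing label mentions light-dark cycles during the experiment as well, while its treatment label gives constant darkness. The question asked of these genes was when and how strongly they cycle in WT liver, and at which level they stand in the clock mutants.

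Ribosome production begins in the nucleolus, where RNA polymerase I transcribes a long precursor RNA. Box C/D particles methylate this precursor and box H/ACA particles convert uridines to pseudouridine, while large assemblies of processing factors fold and cut it into the RNAs of both subunits. The genes of this machinery are known targets of the transcription factor MYC, and in mouse liver ribosome production is known to follow feeding and the clock.

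RNA was measured by bulk MARS-seq, a method that reads transcripts near their 3′ ends and marks molecules with random barcodes, and a count is therefore a marked molecule. The totals per library were 1442278 to 5643470 counts in PerDKO (median 3687565), 1924755 to 5325256 in Bmal1-/- (median 3708719) and 1678097 to 4364594 in WT (median 3114382). Each of the 12 time points held 4 libraries, lettered A to D, apart from 2 time points with 3 libraries in PerDKO and 2 in Bmal1-/-. The labels do not say that libraries of a time point came from separate animals, so p-values measure the spread between these libraries, part of which may be technical. Levels are counts relative to the TMM-scaled library total (CPM), and since tags lie at 3′ ends they are compared between genotypes and not between genes. The genotypes were counted in separate tables, so genotype and library preparation cannot be told apart in any comparison of levels, and some genes differ between tables by far more than the rest. *Rps24*, which encodes a ribosomal protein, had 0 to 3.88 CPM in Bmal1-/-, 329 to 658 CPM in PerDKO and 222 to 439 CPM in WT, and 33 genes were higher and 52 lower by more than 3 log2 units in Bmal1-/- than in WT, against 5 higher and 0 lower in PerDKO than in WT. The clock output gene *Dbp* cycled 74.8-fold in WT with a peak at 11.0 h, and its 24-hour fits in PerDKO (adjusted p = 0.936) and Bmal1-/- (adjusted p = 0.871) did not pass the test. *Arntl* had 4.87 to 15.2 CPM in Bmal1-/- (median 8.40), 1.63 to 10.0 CPM in PerDKO (median 5.57) and 0.667 to 33.6 CPM in WT (median 11.0), and its level in Bmal1-/- did not pass against WT (log2 difference 0.14, adjusted p = 0.0989). Where the 3′ tags of the targeted genes lie relative to the deleted parts was not examined, so these levels were not used as a check of the genotypes. All 5 hepatocyte markers were present, with a median sum of 81163 CPM in PerDKO, 48302 in Bmal1-/- and 69754 in WT, and all 5 Kupffer cell markers, with sums of 162 to 728 CPM in PerDKO (median 262), 38.7 to 153 CPM in Bmal1-/- (median 76.9) and 149.9 to 593 CPM in WT (median 236). The 5 cholangiocyte markers summed to 57.8 to 229 CPM in PerDKO (median 115), 38.3 to 478 CPM in Bmal1-/- (median 111) and 38.7 to 122 CPM in WT (median 56.1). Stellate cell markers summed to 94.3 to 334 CPM in PerDKO (median 155), 60.3 to 158 CPM in Bmal1-/- (median 109.6) and 60.3 to 149.9 CPM in WT (median 108), and endothelial markers to medians of 161 CPM in PerDKO, 159 in Bmal1-/- and 177 in WT. Of 5 stellate cell markers, 5 were listed in PerDKO and in Bmal1-/- and 4 in WT. The 1 erythroid marker listed of 4 had 17.1 to 204 CPM in PerDKO (median 119.8), 48.7 to 217 CPM in Bmal1-/- (median 117) and 113 to 384 CPM in WT (median 229). Lymphocyte markers had median sums of 8.41 CPM in PerDKO, 1.64 in Bmal1-/- and 8.28 in WT, and markers of proliferating cells 3.68, 1.48 and 3.09 CPM in PerDKO, Bmal1-/- and WT. Of 5 lymphocyte markers 3 were listed in PerDKO, 2 in Bmal1-/- and 3 in WT, and of 5 markers of proliferating cells 4, 2 and 4. These sums and the stellate ones thus add unlike numbers of genes and are not comparable between all genotypes. Markers of some cell types also went opposite ways against WT, so those sums do not hold for each marker. The 5 Kupffer cell markers were all lower in Bmal1-/-, with log2 differences from -1.29 (*Clec4f*) to -3.56 (*Marco*). In PerDKO they went both ways, with 1.275 for *Vsig4* and -0.32 for *Adgre1*. In Bmal1-/- the log2 differences were -1.01 for *Alb* and 0.77 for *Cps1*, both hepatocyte markers. Of the cholangiocyte markers *Spp1* had 1.07 and *Krt7* -0.69 in Bmal1-/-. Of the stellate cell markers *Dcn* had 1.63 and *Des* -0.20 in PerDKO. The part of these cells in the levels below was not tested. In bulk liver, fewer cells of a type and less RNA per cell cannot be told apart. In PerDKO the libraries CT4 C, CT8 C and CT32 A were least like their own groups (r = 0.956, 0.958 and 0.961 with the mean of the others), and results are also given without them where they change.

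The clock activators CLOCK and BMAL1, and MYC as well, bind the E-box CACGTG, so the promoters of the genes were searched for these letters. RefSeq start sites gave a promoter for 35 of the 40 genes (not for *Rrs1*, *Npm1*, *Rrp12*, *Fbl* and *Bop1*), and 2 of the 35 (5.7%) held CACGTG, which reads the same on both strands, in the 250 bases before the start, against 6.9% of all 27025 genes with a promoter. It was 1 of 16 genes with a 24-hour rhythm in WT and 1 of 18 without. The sequences are shown because these are the places where the letters occur, with the motif in capitals and 30 bases on either side, for *Nop2*, which cycled, from chr6:125131793-125131858 and for *Imp4*, which was not called, from chr1:34439678-34439743 (both on the plus strand of GRCm38.p6). The motif begins 60 bases before the start in *Nop2* and 121 bases before it in *Imp4*. A match is not evidence of binding.
Nop2: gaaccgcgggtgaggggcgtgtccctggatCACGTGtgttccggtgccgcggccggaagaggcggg
Imp4: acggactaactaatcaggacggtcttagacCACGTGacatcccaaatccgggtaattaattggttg

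In WT livers 20 of the 39 genes cycled with a 24-hour period (51.3%), against 36.9% of all 10263 genes tested. The strongest rhythms were near 2-fold and belonged to *Nop56*, *Nolc1*, *Rrp12* and *Nop2*. The peaks gathered in the subjective night: 16 of the 20 genes (80%) peaked from 12 to 24 h, where 50.7% of all 3784 genes called did, and none peaked from 0 to 8 h. In bins of 4 h there were 4 peaks from 8 to 12 h, 5 from 12 to 16 h, 8 from 16 to 20 h and 3 from 20 to 24 h, with a median of 17 h. The rhythms were shallow as a rule, with a median fold between peak and trough of 1.37 over the 20 genes, against 1.46 over all genes called, and of 1.3 over all 39 genes, against 1.27 over all genes tested. A rhythm was tested by fitting cosine and sine terms of the period in edgeR (quasi-likelihood F-test), and called at an adjusted p under 0.05 over all genes tested. The count was 14 to 17 with any 1 letter left out and 8 to 27 over all 15 alternatives, and 10 of the 20 genes were called without each of the 4 letters (*Nolc1*, *Nop2*, *Rrp12*, *Nop16*, *Nop56*, *Ftsj3*, *Nop58*, *Gnl3*, *Nhp2* and *Fbl*). Below, values by library are given at the time points of a gene's highest and lowest WT mean. That choice favors separation there, within WT and between genotypes, so overlap or its absence at these time points is a description.

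**Figure D1:**
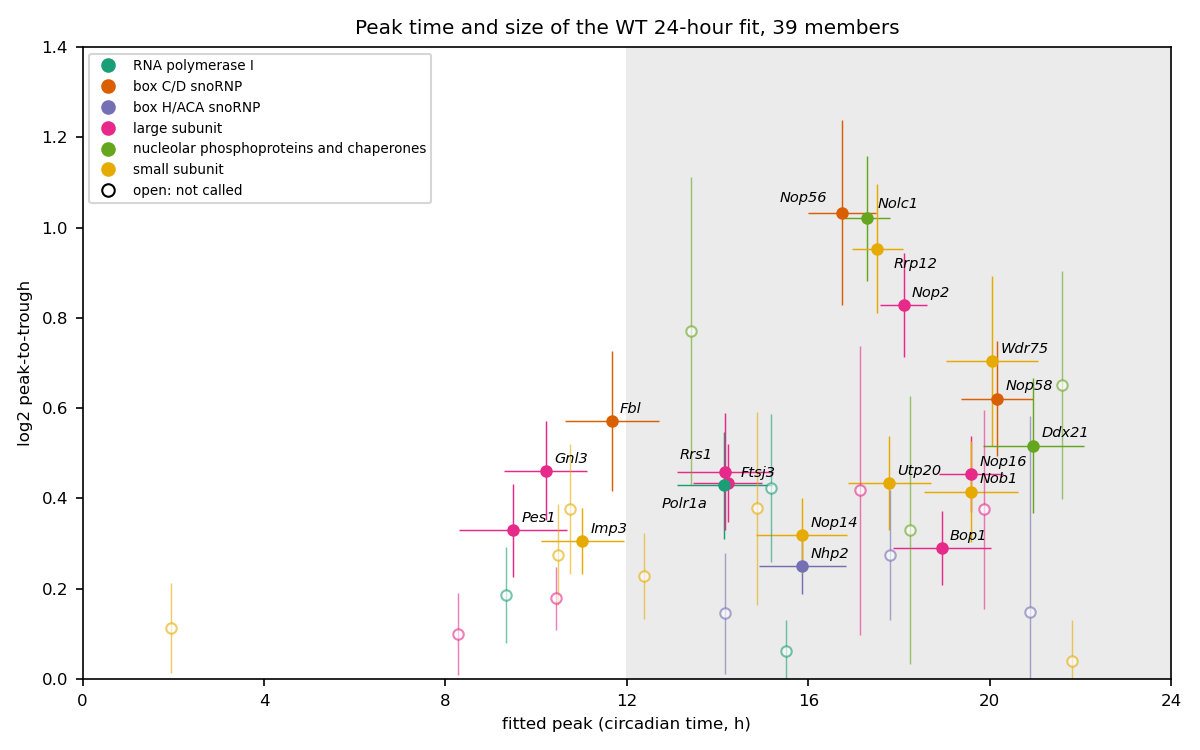
Log2 peak-to-trough difference (vertical, with SE) against fitted peak time in circadian hours (horizontal, with SE for called genes) of the 24-hour fit in WT, colored by role, with filled points for the 20 genes called and grey for the subjective night. The largest fits (*Nop56*, *Nolc1*, *Rrp12* and *Nop2*) lie between 16.7 and 18.1 h, and 4 called genes (*Pes1*, *Gnl3*, *Imp3* and *Fbl*) lie before 12 h.

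Among the subunits of RNA polymerase I, 1 of 4 tested genes cycled. *Polr1a*, which encodes the largest, catalytic subunit, cycled 1.35-fold with a peak at 14.1 ± 1.05 h (SE, adjusted p = 0.0105). *Polr1b*, the gene of the second-largest subunit, had a fit of similar size (1.34-fold at 15.2 h) that did not pass (adjusted p = 0.0901). *Polr1c* and *Polr1d* encode subunits shared with RNA polymerase III. *Polr1d* had 1 of the 3 largest p-values of the 39 genes, with a fit of 0.06 ± 0.07 on the log2 scale (SE, adjusted p = 0.734), with 115, 116, 117 and 132 CPM at CT16 and 85.8, 91.6, 101 and 123 CPM at CT28, the time points of its highest and lowest WT mean. The libraries of those time points overlap.

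All 3 genes of the box C/D particle cycled. *Nop56* encodes 1 of its 2 scaffold proteins and had 14.3, 14.6, 16.3 and 20.5 CPM at CT16 and 5.69, 7.03, 7.44 and 7.82 CPM at CT24. The libraries of these time points do not overlap, and the fit gave 1.03 ± 0.20 on the log2 scale (2.05-fold) with a peak at 16.7 ± 0.75 h (SE, adjusted p = 0.000178). *Nop58*, the gene of the other scaffold protein, peaked later, at 20.2 ± 0.79 h (SE, 1.54-fold, adjusted p = 0.000387), with 15.3, 15.4, 16.0 and 17.2 CPM at CT4 and 19.4, 31.8, 33.8 and 38.4 CPM at CT44, where 1 library was low. *Fbl*, which encodes the methyltransferase fibrillarin, peaked at 11.7 ± 1.04 h (SE, 1.49-fold, adjusted p = 0.00881), before the subjective night. The 3 genes of 1 particle thus had fitted peaks between 11.7 and 20.2 h.

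Of the 4 genes of the box H/ACA particle only *Nhp2*, which encodes a core protein of it, was called (1.19-fold at 15.9 h, adjusted p = 0.00416), the smallest fold of the 20. *Dkc1*, the gene of the pseudouridine synthase dyskerin, had 1.11-fold (adjusted p = 0.666), and *Gar1* had 1.21-fold (adjusted p = 0.287). *Nop10*, the gene of another core protein, had the largest p of the 39 genes (0.15 ± 0.43 on the log2 scale, SE, adjusted p = 0.956), with 0.543, 0.743, 2.17 and 2.78 CPM at CT0 and 0, 0, 0.727 and 0.80 CPM at CT28. Its median in WT was 2 counts per library.

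Of the 12 small-subunit factors 6 cycled. *Rrp12*, whose product takes part in maturation and nuclear export of precursor subunits, had 3.06, 5.01, 5.77 and 7.02 CPM at CT4 and 11.1, 13.1, 15.8 and 16.3 CPM at CT20. The 2 time points do not overlap, and the fit gave 0.95 ± 0.14 on the log2 scale (1.94-fold) with a peak at 17.5 ± 0.57 h (SE, adjusted p = 1.6e-06). *Utp20* and *Wdr75*, of the early processing assembly, peaked at 17.8 h (1.35-fold, adjusted p = 0.00286) and 20.0 h (1.63-fold, adjusted p = 0.0077). *Nob1*, the gene of the nuclease that cuts the 3′ end of the small-subunit RNA, peaked at 19.6 h (1.33-fold, adjusted p = 0.00918), and *Nop14*, of the early assembly, at 15.9 h (1.25-fold, adjusted p = 0.00715). *Imp3*, which encodes a protein of the U3 particle, was the early one, with a peak at 11.0 h (1.24-fold, adjusted p = 0.00256). *Rrp9*, *Noc4l*, *Wdr43*, *Bysl*, *Imp4* and *Heatr1* were not called. *Heatr1*, whose product also supports RNA polymerase I transcription, had 0.04 ± 0.09 on the log2 scale (SE, adjusted p = 0.935), with 23.0, 27.4, 27.5 and 33.4 CPM at CT16 and 17.3, 19.6, 20.3 and 26.0 CPM at CT40, which overlap.

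Of the 11 large-subunit factors 7 cycled. *Nop2*, which encodes a methyltransferase of the large-subunit RNA, had 13.5, 17.1, 18.6 and 19.3 CPM at CT4 and 30.0, 34.4, 37.0 and 43.6 CPM at CT16. All 4 libraries of CT16 lie above all of CT4, and the fit gave 0.83 ± 0.11 on the log2 scale (1.78-fold) with a peak at 18.1 ± 0.53 h (SE, adjusted p = 2.57e-07). *Nop16*, an assembly factor gene, had 52.5, 52.9, 59.8 and 60.9 CPM at CT20 and 29.4, 38.2, 39.3 and 42.8 CPM at CT32, without overlap (1.37-fold, peak at 19.6 ± 0.71 h, SE, adjusted p = 9.64e-05). *Ftsj3*, the gene of another RNA methyltransferase, peaked earlier, at 14.2 ± 0.76 h (SE, 1.35-fold, adjusted p = 0.000255), with 27.8, 30.1, 31.3 and 31.7 CPM at CT20 and 35.6, 47.1, 48 and 59.8 CPM at CT40. *Rrs1*, of the particle that carries the smallest ribosomal RNA, peaked at 14.2 h (1.38-fold, adjusted p = 0.0141). *Pes1* and *Bop1* encode partners in 1 complex, and peaked at 9.49 h (1.26-fold, adjusted p = 0.0265) and 18.9 h (1.22-fold, adjusted p = 0.0143), while *Wdr12*, the gene of the third partner, was not called (1.34-fold, adjusted p = 0.527). *Gnl3*, which encodes the nucleolar GTPase nucleostemin, was also early, with 19.9, 21.1, 21.2 and 24.4 CPM at CT8 and 11.5, 12.7, 14.4 and 15.1 CPM at CT20, a 1.38-fold rhythm peaking at 10.2 ± 0.91 h (SE, adjusted p = 0.00235). *Rrp1*, *Noc2l* and *Ddx18* were not called.

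Of the 5 genes of nucleolar phosphoproteins, chaperones and their helicase 2 cycled. *Nolc1*, whose product is a nucleolar phosphoprotein that binds both kinds of particle, had 5.27, 5.45, 8.75 and 8.86 CPM at CT4 and 18.1, 20.4, 20.6 and 26.9 CPM at CT16. Each library of CT16 was more than 2 times the highest of CT4, and the fit gave 1.02 ± 0.14 on the log2 scale (2.03-fold) with a peak at 17.3 ± 0.51 h, the smallest p of the 39 genes (SE, adjusted p = 1.84e-07). *Ddx21*, which encodes a nucleolar RNA helicase, peaked at 21.0 h (1.43-fold, adjusted p = 0.0153). *Ncl* (nucleolin, 1.71-fold at 13.4 h), *Npm1* (nucleophosmin, 1.57-fold at 21.6 h) and *Npm3* (1.26-fold) had adjusted p = 0.147, 0.115 and 0.649, with medians of 3.5, 4.5 and 8 counts per library in WT.

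**Figure D2:**
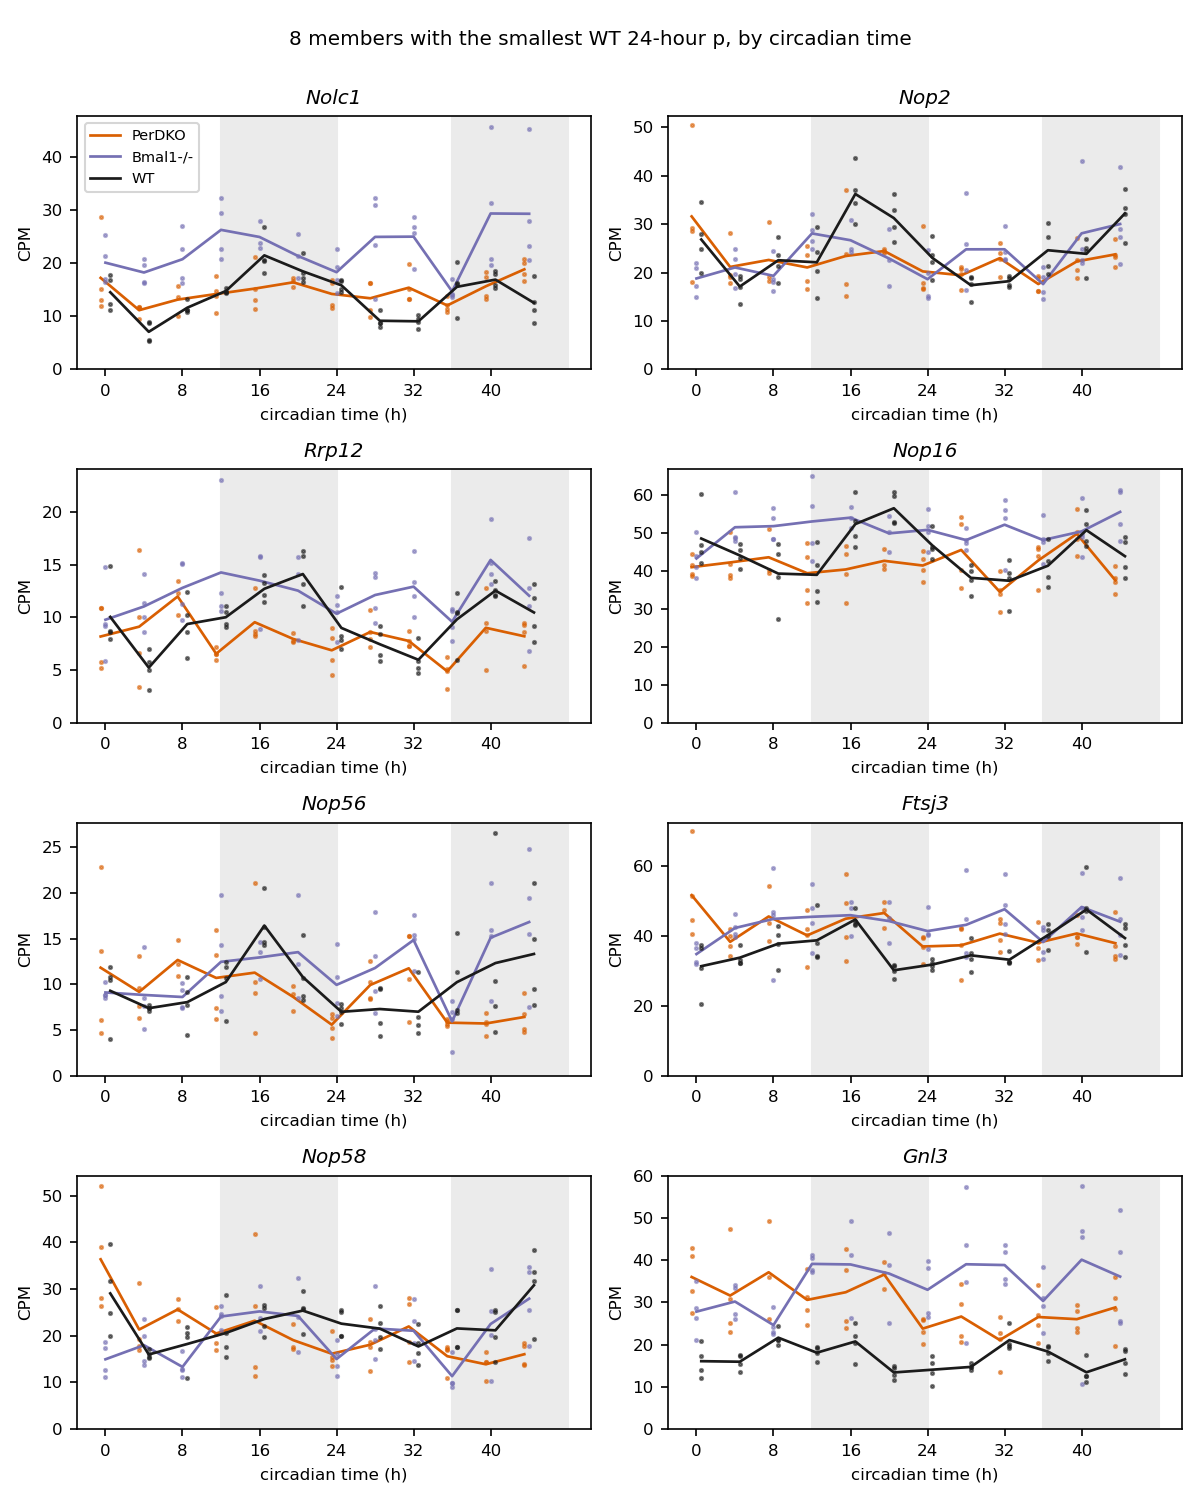
Level in CPM (vertical) by circadian time in hours (horizontal) for the 8 genes with the smallest WT p, with a point per library and lines through the means for PerDKO, Bmal1-/- and WT, and grey for the subjective night. WT *Nolc1* has its lowest mean, 7.08 CPM, at CT4 and its highest, 21.5 CPM, at CT16, and the Bmal1-/- line of *Nolc1* lies above the WT line at every time point apart from CT36, where the means are 14.7 CPM in Bmal1-/- and 15.6 CPM in WT.

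Each day of WT was also fitted alone. Fitted to day 1 (CT0 to CT20) and day 2 (CT24 to CT44) apart, the peaks of the 20 genes lay within 4 h of each other in 19, with a median gap of 1.21 h, and *Pes1* had the largest gap (4.5 h). The median fold was 1.41 on both days. *Nop56* peaked at 16.5 h on day 1 and 16.9 h on day 2, *Nolc1* at 17.1 and 17.5 h, *Rrp12* at 17.4 and 17.7 h, and *Nop2* at 17.9 and 18.4 h. With 1 day alone 9 of the 20 genes passed on day 1 and 8 on day 2 (2401 and 1723 of all genes tested). The days were part of the fit over 48 h, which favors genes whose days agree. They are thus not independent of the choice of the 20, and the gaps of all genes called were not taken. At 12 hours none of the 39 genes was called in WT (0% of all genes; 3 of the 39 and 662 of all genes at an unadjusted p under 0.05; DESeq2 called 4 of all genes and 0 of the 39). The closest was *Rrp9*, the gene of a U3 particle protein, with a 1.41-fold fit and an adjusted p of 0.637.

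None of the 39 genes was called rhythmic in either clock mutant. In PerDKO livers 0 passed at 24 hours (0.205% of all genes; 3 of the 39 and 1123 of all at an unadjusted p under 0.05) and 0 at 16 hours, a period that the study examined in this genotype (0.0585% of all genes; 4 of the 39 and 1461 of all at an unadjusted p under 0.05). In Bmal1-/- livers 0 passed at 24 hours (0.039% of all genes; 5 of the 39 and 609 of all at an unadjusted p under 0.05). The 3 counts of 0 held under each alternative, DESeq2 and JTK_CYCLE among them. *Nolc1* came closest at 24 hours in PerDKO, with 0.41 ± 0.13 on the log2 scale and a peak at 19.4 h (SE, adjusted p = 0.276). *Nop58* (1.55-fold, adjusted p = 0.177), *Dkc1* (1.31-fold, adjusted p = 0.256) and *Nop56* (1.55-fold, adjusted p = 0.317) came closest at 16 hours. In Bmal1-/- *Ddx21* had 0.46 ± 0.14 with a peak at 18.7 h and *Wdr75* 0.68 ± 0.22 with a peak at 17.8 h (SE, adjusted p = 0.786 each), near their WT peaks of 21.0 and 20.0 h.

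The 20 genes that cycled in WT had smaller 24-hour fits in the mutants. In PerDKO their fits ran from 1.03- to 1.43-fold with a median of 1.11 (1.15 over all genes), and 20 of 20 were smaller than in WT, where the median was 1.37. Their fitted peaks in PerDKO were spread around the day, with 10 of 20 from 12 to 24 h. In Bmal1-/- the fits ran from 1.05- to 1.60-fold with a median of 1.20 (1.13 over all genes), and 19 of 20 were smaller than in WT. *Rrs1* was the exception, with 1.43-fold in Bmal1-/- and 1.38-fold in WT. In Bmal1-/- 16 of 20 fitted peaks fell from 12 to 24 h, as did 16 of 20 in WT, with medians of 14.9 h in Bmal1-/- and 17 h in WT. None of the fits in the mutants passed, and in Bmal1-/- the SE of a peak ran from 1.17 h (*Ddx21*) to 4.49 h (*Nop14*). The share of all genes with such peaks in the mutants was not taken, so a kept phase cannot be read from these counts. The 20 genes were chosen for passing in WT, which favors large WT fits, so the counts of smaller fits are a description.

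**Figure D3:**
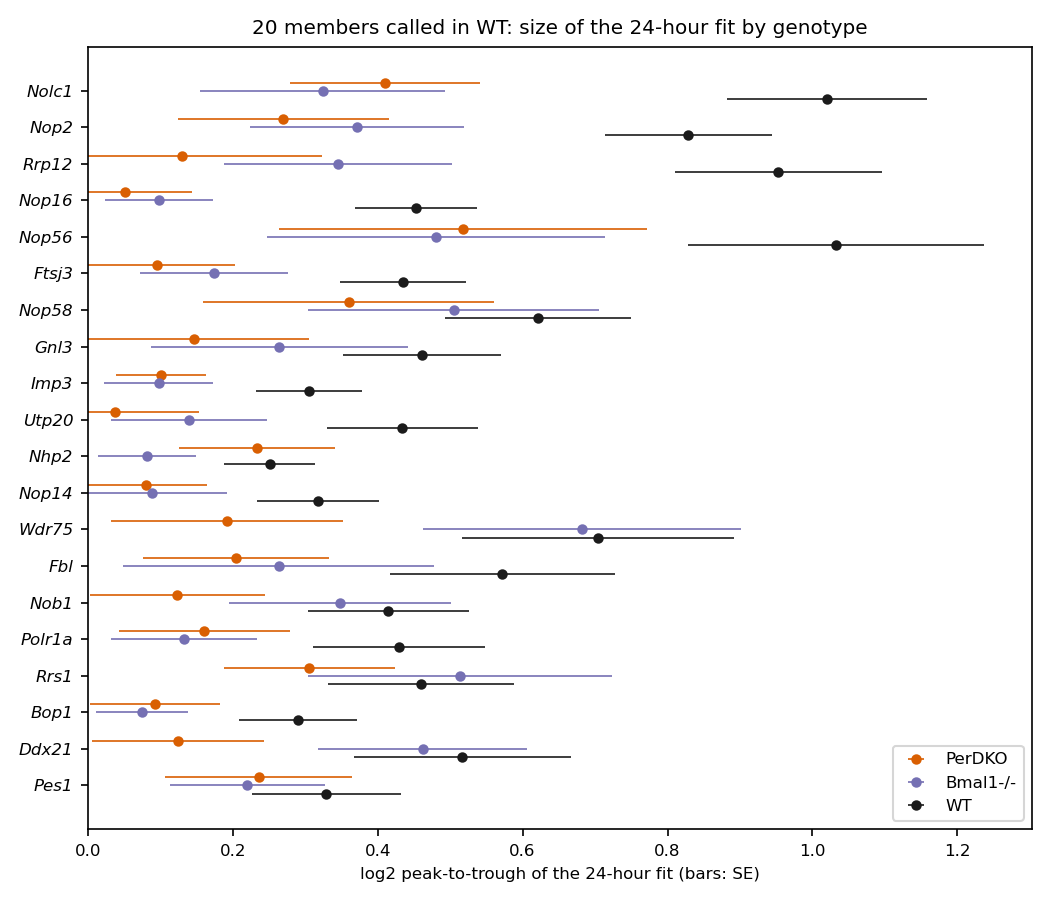
Log2 peak-to-trough difference of the 24-hour fit (horizontal, with SE) of the 20 genes called in WT, with PerDKO above Bmal1-/- above WT for each gene. The fits of *Nolc1*, *Nop2* and *Rrp12* in PerDKO and Bmal1-/- lie at 0.13 to 0.41 and in WT at 0.83 to 1.02, and those of *Wdr75* in Bmal1-/- (0.68) and WT (0.70) lie side by side.

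The difference in rhythm itself was tested in 1 edgeR fit of both genotypes. Against WT it passed in 14 of 39 genes for PerDKO (35.9%, against 23.7% of all genes) and in 5 of 39 for Bmal1-/- (12.8%, against 18.6% of all genes). The PerDKO count was 7 without letter A, 9 without B and 9 without C, and 12 without the 3 libraries that stood apart. Of all genes 1681, 1739, 1609 and 2258 passed in these fits, in the same order. The Bmal1-/- count was 1 with letter A left out, 3 with B, 2 with C and 1 with D left out (1372, 1370, 1167 and 1233 of all genes). *Nop56*, *Rrp12* and *Rrs1* passed for PerDKO under all 10 alternatives, and no gene passed for Bmal1-/- under all 9.

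*Nop56* had the smallest p of the PerDKO differences (adjusted p = 0.00115). It had 4.71, 9.07, 10.3 and 21.0 CPM at CT16 in PerDKO, against 14.3, 14.6, 16.3 and 20.5 CPM in WT, and 4.11, 5.19, 6.35 and 6.71 CPM at CT24 in PerDKO, against 5.69 to 7.82 CPM in WT. Of the PerDKO libraries of CT16, 3 lie below all WT libraries and 1 above them, and the fitted peak was at 7.44 h in PerDKO (1.43-fold) and at 16.7 h in WT (2.05-fold). *Rrp12* (adjusted p = 0.00212) had 3.41, 6.59, 10.0 and 16.4 CPM at CT4 in PerDKO, against 3.06 to 7.02 CPM in WT, and 7.60, 7.74 and 8.47 CPM at CT20 in PerDKO, against 11.1 to 16.3 CPM in WT. All PerDKO libraries were below all WT libraries at CT20, which was chosen for its highest WT mean. At CT4 the PerDKO libraries were spread, the highest being library C, 1 of the 3 that stood apart. *Rrs1* (adjusted p = 0.00343) had 14.9, 16.3 and 23.1 CPM at CT8 in PerDKO, against 18.1, 22.6, 26.9 and 35.5 CPM in WT, and 13.1, 18.4, 19.7 and 20.7 CPM at CT28 in PerDKO, against 13.9, 17.2, 17.5 and 17.6 CPM in WT. Its PerDKO fit peaked at 23.9 h and its WT fit at 14.2 h. The others were *Imp3*, *Nop2*, *Fbl*, *Nolc1*, *Nop14*, *Ftsj3*, *Nhp2*, *Nop58*, *Ddx21*, *Gnl3* and *Nop16*, with adjusted p from 0.00438 to 0.0444.

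*Nop16* had the smallest p of the Bmal1-/- differences (adjusted p = 0.00506). It had 44.9, 50.4 and 54.5 CPM at CT20 in Bmal1-/-, against 52.5 to 60.9 CPM in WT, and 40.1, 54.1, 56.0 and 58.6 CPM at CT32 in Bmal1-/-, against 29.4 to 42.8 CPM in WT. At CT32, 3 of 4 Bmal1-/- libraries lie above all WT libraries. *Rrp12* (adjusted p = 0.0113) had 8.59, 10.0, 11.4 and 14.1 CPM at CT4 in Bmal1-/-, against 3.06 to 7.02 CPM in WT, and 7.83, 14.1 and 15.7 CPM at CT20 in Bmal1-/-, against 11.1 to 16.3 CPM in WT. The genotypes were apart at the time of the WT trough and overlapped at the time of the WT peak. *Bop1* (adjusted p = 0.0205) had 46.1, 46.4 and 55.3 CPM at CT16 in Bmal1-/-, against 32.9, 38.1, 39.6 and 46.2 CPM in WT, and 49.5, 50.8, 52.8 and 55.4 CPM at CT32 in Bmal1-/-, against 21.9, 29.3, 30.9 and 32.0 CPM in WT. *Imp3* (adjusted p = 0.0243) and *Nolc1* (adjusted p = 0.0447) were the others.

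In level, averaged over the 12 time points, 18 of 39 genes were higher in PerDKO than in WT (46.2%, against 34% of all genes), 9 were lower (23.1%, against 31.2% of all genes) and 12 did not pass. The median log2 difference was 0.15 over the 39 genes and 0.02 over all genes. *Npm1* and *Gnl3* stood highest, and the subunits of RNA polymerase I were split, with *Polr1a* and *Polr1b* higher and *Polr1c* and *Polr1d* lower. Without the 3 PerDKO libraries that stood apart 14 genes were higher and 10 lower, and *Polr1a*, *Nop10*, *Bysl*, *Nop16* and *Wdr12* no longer passed. Day 1 alone gave 14 higher and 6 lower, and day 2 alone 11 higher and 10 lower. Over all 12 alternatives 11 to 18 of the 39 genes and 2688 to 3495 of all genes were higher. Lower were 6 to 10 of the 39 and 2734 to 3306 of all. The counts thus depend on the libraries used, among the 39 genes and among all genes. An excess of higher genes is therefore not read from them.

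*Npm1*, the gene of the histone chaperone nucleophosmin, ran from 0.960 to 29.9 CPM in PerDKO (median 4.92), against 0 to 3.08 CPM in WT (median 1.39), a log2 difference of 1.92 ± 0.21 (SE, adjusted p = 7.16e-16). The difference was 2.70 on day 1 alone (adjusted p = 5.61e-13) and 1.12 on day 2 alone (adjusted p = 0.000172). It has processed pseudogenes that may share its reads, so its value is uncertain, and its medians were 17 counts per library in PerDKO and 4.5 in WT. *Gnl3* ran from 13.6 to 49.4 CPM in PerDKO (median 27.7), against 10.2 to 25.2 CPM in WT (median 17.3), with 0.81 ± 0.07 (SE, adjusted p = 2.91e-18). *Fbl* had a median of 31.4 CPM in PerDKO (16.3 to 50.7), against 19.6 CPM in WT (7.82 to 40.1), with 0.60 ± 0.09 (SE, adjusted p = 7.33e-09). The fibrillarin gene was therefore higher while *Nop56* (-0.14 ± 0.11) and *Nop58* (-0.15 ± 0.08), of the same particle, did not pass (SE, adjusted p = 0.256 and 0.0918). *Dkc1* had a median of 11.7 CPM in PerDKO (4.98 to 20.1), against 7.96 CPM in WT (4.40 to 11.8), with 0.54 ± 0.07 (SE, adjusted p = 1.62e-10). *Noc4l*, of the early small-subunit assembly, had 17.3 CPM in PerDKO (11.2 to 27.0), against 11.9 CPM in WT (6.34 to 17.2), with 0.51 ± 0.06 (SE, adjusted p = 6.83e-14). All 5 overlap between the genotypes.

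The largest falls in PerDKO were small. *Polr1d* had a median of 83.4 CPM in PerDKO (71.0 to 106), against 105 CPM in WT (83.3 to 132), a log2 difference of -0.32 ± 0.03 (SE, adjusted p = 9.22e-20). *Polr1c* had 33.2 CPM in PerDKO (26.9 to 44.2), against 40.4 CPM in WT (27.1 to 59.9), with -0.29 ± 0.04 (SE, adjusted p = 3.52e-09). These 2 genes encode subunits that RNA polymerases I and III share. *Rrs1* had 18 CPM in PerDKO (11.8 to 26.9), against 22.3 CPM in WT (12.9 to 35.5), with -0.29 ± 0.07 (SE, adjusted p = 0.000229). *Imp4* had 26.6 CPM in PerDKO (19.8 to 44.1), against 33.5 CPM in WT (23.9 to 47.8), with -0.29 ± 0.05 (SE, adjusted p = 2.31e-08). *Rrp9* had 9.03 CPM in PerDKO (3.81 to 14.7), against 10.9 CPM in WT (5.00 to 17.3), with -0.27 ± 0.07 (SE, adjusted p = 0.00032). *Imp4* and *Rrp9* both encode proteins of the U3 particle, while *Imp3*, of the same particle, was higher in PerDKO (0.18 ± 0.03, SE, adjusted p = 1.26e-07).

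In Bmal1-/- 25 of 39 genes were higher than in WT (64.1%, against 35.8% of all genes), 5 were lower (12.8%, against 38.5% of all genes) and 9 did not pass. The median log2 difference was 0.26 over the 39 genes and -0.02 over all genes. All 4 genes of the box H/ACA particle were higher, as were 3 of 4 RNA polymerase I genes, 6 of 12 small-subunit factors, 8 of 11 large-subunit factors and 3 of 5 nucleolar phosphoprotein and chaperone genes. Days 1 and 2 alone gave 22 and 24 higher and 4 and 5 lower. Over all 11 alternatives 20 to 26 of the 39 genes and 3177 to 3672 of all genes were higher. Lower were 4 to 5 of the 39 and 3293 to 4129 of all.

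*Npm1* again stood highest, with 1.29 to 22.4 CPM in Bmal1-/- (median 5.22), against 0 to 3.08 CPM in WT (median 1.39) and a log2 difference of 2.05 ± 0.20 (SE, adjusted p = 6.97e-19). *Nop10* ran from 0.776 to 8.59 CPM in Bmal1-/- (median 3.12), against 0 to 3.70 CPM in WT (median 0.761), with 2.00 ± 0.19 (SE, adjusted p = 4.6e-20). *Ncl* ran from 0.542 to 6.15 CPM in Bmal1-/- (median 3.49), against 0 to 3.60 CPM in WT (median 1.16), with 1.5 ± 0.16 (SE, adjusted p = 2.54e-16). All 3 rest on few molecules, with medians of 20, 11 and 12 counts per library in Bmal1-/- and of 4.5, 2 and 3.5 in WT. *Gnl3* was deeper, with 10.7 to 57.7 CPM in Bmal1-/- (median 34.5), against 10.2 to 25.2 CPM in WT (median 17.3) and a difference of 1.02 ± 0.07 (SE, adjusted p = 4.26e-25). *Bysl*, whose product takes part in small-subunit assembly, had a median of 6.11 CPM in Bmal1-/- (3.77 to 9.52), against 3.60 CPM in WT (0.879 to 7.77), with 0.83 ± 0.09 (SE, adjusted p = 2.52e-14). *Polr1b* had 8.73 CPM in Bmal1-/- (4.28 to 13.7), against 4.95 CPM in WT (2.97 to 8.67), with 0.81 ± 0.08 (SE, adjusted p = 3.76e-16). The ranges of these genes overlap between the genotypes. *Nhp2* had 99.6 to 155 CPM in Bmal1-/- and 56.3 to 97.7 CPM in WT, without overlap (0.69 ± 0.04, SE, adjusted p = 7.41e-33). The share of all genes without overlap was not taken, so this is a description.

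The 5 genes lower in Bmal1-/- were *Npm3*, *Rrs1*, *Rrp9*, *Nop58* and *Polr1d*. *Npm3*, which encodes a relative of nucleophosmin, ran from 0 to 2.86 CPM in Bmal1-/- (median 0.512, with 12 of 46 libraries at 0), against 0 to 4.34 CPM in WT (median 2.32), a log2 difference of -2.16 ± 0.25 (SE, adjusted p = 1.31e-17). It thus went the opposite way to *Npm1*, at a median of 2 counts per library in Bmal1-/-. *Rrs1* had a median of 15.3 CPM in Bmal1-/- (6.43 to 31.2), against 22.3 CPM in WT (12.9 to 35.5), with -0.48 ± 0.07 (SE, adjusted p = 9.4e-09). *Rrp9* had 8.46 CPM in Bmal1-/- (3.61 to 13.2), against 10.9 CPM in WT (5.00 to 17.3), with -0.37 ± 0.07 (SE, adjusted p = 1.18e-06). *Nop58* had 18.9 CPM in Bmal1-/- (9.01 to 34.8), against 20.6 CPM in WT (10.9 to 39.8), with -0.20 ± 0.08 (SE, adjusted p = 0.0168). *Polr1d* had 91.8 CPM in Bmal1-/- (79.6 to 108), against 105 CPM in WT (83.3 to 132), with -0.19 ± 0.03 (SE, adjusted p = 7.5e-10). These ranges overlap too.

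**Figure D4:**
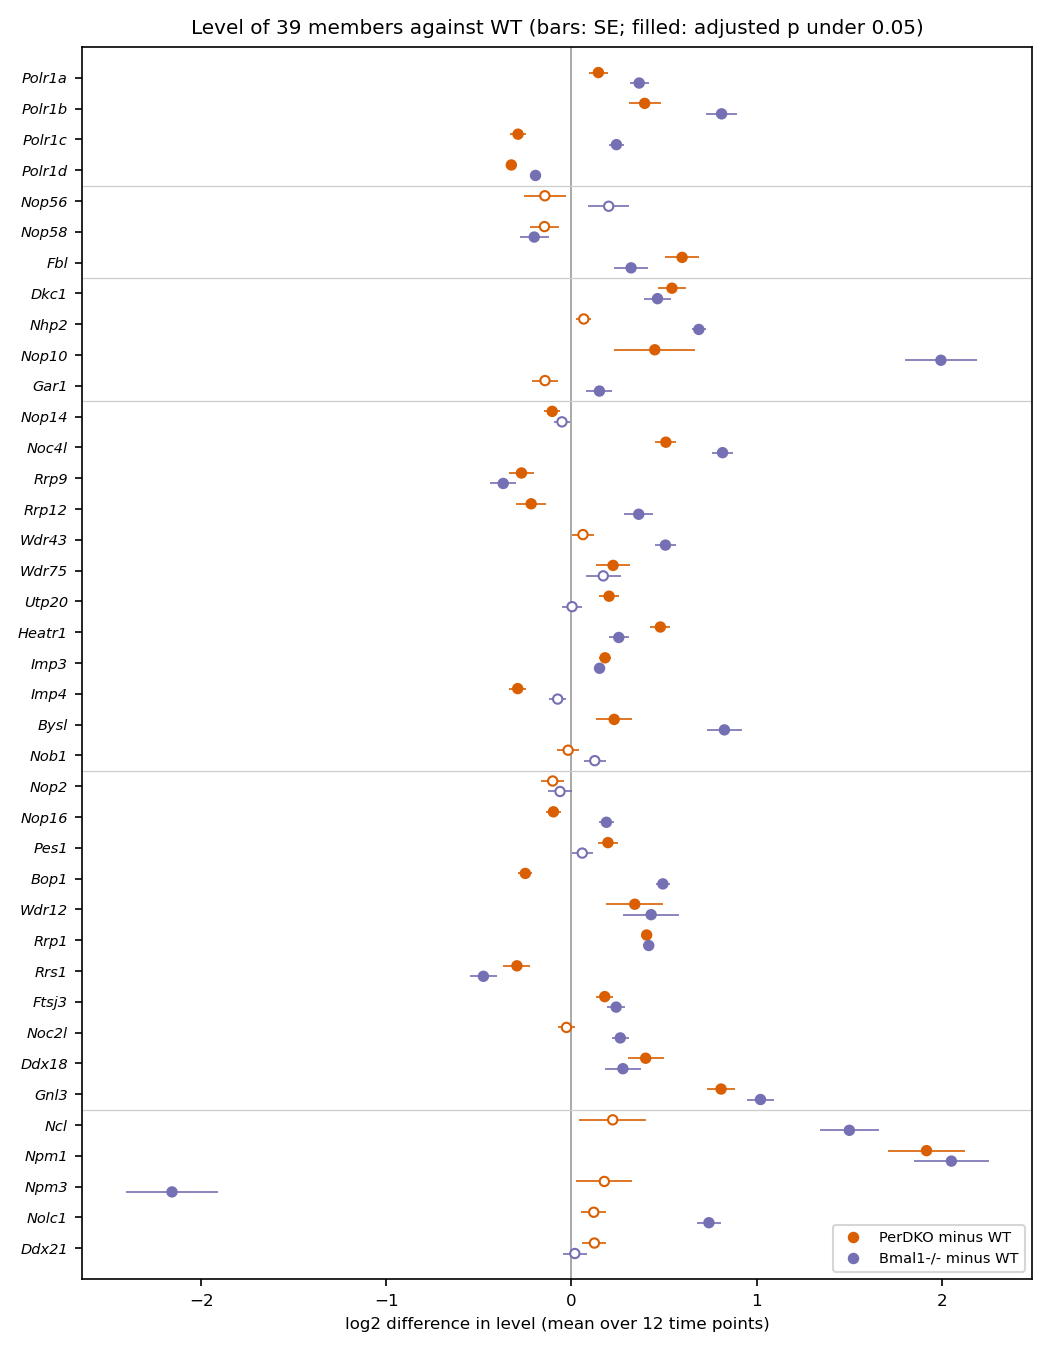
Log2 difference in level (horizontal, with SE) of the 39 genes, with PerDKO minus WT above Bmal1-/- minus WT for each gene, grouped by role and filled where the adjusted p was under 0.05. Most filled points lie right of 0 (18 of 27 in PerDKO and 25 of 30 in Bmal1-/-), and *Npm3* in Bmal1-/- lies far left at -2.16.

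The comparisons with WT share the WT libraries, so their values are set side by side without a count of shared calls. The 4 genes given first were chosen as those called lower in PerDKO and higher in Bmal1-/-. Most genes called in both comparisons had the same direction in both. The shared WT libraries favor this, so no agreement between the mutants is read from it. *Polr1c* had log2 differences from WT of -0.29 ± 0.04 in PerDKO and 0.24 ± 0.04 in Bmal1-/-, *Rrp12* of -0.22 ± 0.08 and 0.36 ± 0.08, *Nop16* of -0.10 ± 0.04 and 0.19 ± 0.04 and *Bop1* of -0.25 ± 0.04 and 0.49 ± 0.04, in PerDKO and Bmal1-/- (SE, each called). *Bop1*, whose product joins *Pes1* and *Wdr12* in the large-subunit complex, had a median of 29.5 CPM in PerDKO (18.8 to 40.4), 48.6 CPM in Bmal1-/- (38.9 to 58.6) and 34.2 CPM in WT (21.9 to 46.2). Of the 20 genes that cycled in WT, *Nolc1* had a median of 13.8 CPM in PerDKO (9.57 to 28.8), 21.4 CPM in Bmal1-/- (13.2 to 45.8) and 14.7 CPM in WT (5.27 to 26.9). Its libraries at CT4, the WT trough, had 9.57, 11.5, 11.7 and 11.8 CPM in PerDKO, 16.3, 16.4, 19.6 and 20.7 CPM in Bmal1-/- and 5.27 to 8.86 CPM in WT. They do not overlap, at a time point chosen for its lowest WT mean.

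Set directly against Bmal1-/-, 6 genes were higher in PerDKO (15.4%, against 38.6% of all genes) and 20 were lower (51.3%, against 34.4% of all genes), with a median log2 difference of -0.13 over the 39 genes and 0.03 over all genes. *Npm3* was the highest in PerDKO, with 0.374 to 5.16 CPM (median 2.96), against 0 to 2.86 CPM in Bmal1-/- (2.34 ± 0.25, SE, adjusted p = 2.8e-20). *Fbl* (0.28 ± 0.09), *Heatr1* (0.22 ± 0.05), *Utp20* (0.20 ± 0.05) and *Rrs1* (0.18 ± 0.08) followed (SE, adjusted p = 0.000114 to 0.0249). Without the 3 PerDKO libraries that stood apart *Rrs1* and *Pes1* no longer passed and 4 genes were higher. *Nop10* (-1.55 ± 0.17) and *Ncl* (-1.28 ± 0.15) were the lowest in PerDKO, at low counts in both genotypes (SE, adjusted p = 6.37e-16 and 8.35e-14). *Bop1* was lower at ample depth, with medians of 107 counts per library in PerDKO and 168 in Bmal1-/- (-0.74 ± 0.04, SE, adjusted p = 3.02e-37). *Nolc1* (-0.62 ± 0.06, adjusted p = 1.16e-15) and *Nhp2* (-0.62 ± 0.04, adjusted p = 4.05e-29) were lower as well.

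The 39 genes were also averaged in each library, as the mean of log2(CPM + 1) minus the WT mean of each gene. In WT this mean was lowest at CT4 (-0.17 ± 0.06) and CT28 (-0.18 ± 0.05), 24 h apart, and highest at CT16 (0.18 ± 0.07) and CT36 (0.11 ± 0.06, SD, n = 4 each). In Bmal1-/- it lay at 0.26 ± 0.13 on day 1 (SD, n = 22) and 0.29 ± 0.18 on day 2 (SD, n = 24), against 0.02 ± 0.13 and -0.02 ± 0.12 in WT (SD, n = 24 each). In PerDKO it lay at 0.19 ± 0.15 on day 1 (SD, n = 22) and 0.06 ± 0.07 on day 2 (SD, n = 24). The highest PerDKO libraries were CT8 C (0.52) and CT4 C (0.51), which are 2 of the 3 that stood apart, then CT0 B (0.48) and CT16 D (0.45).

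**Figure D5:**
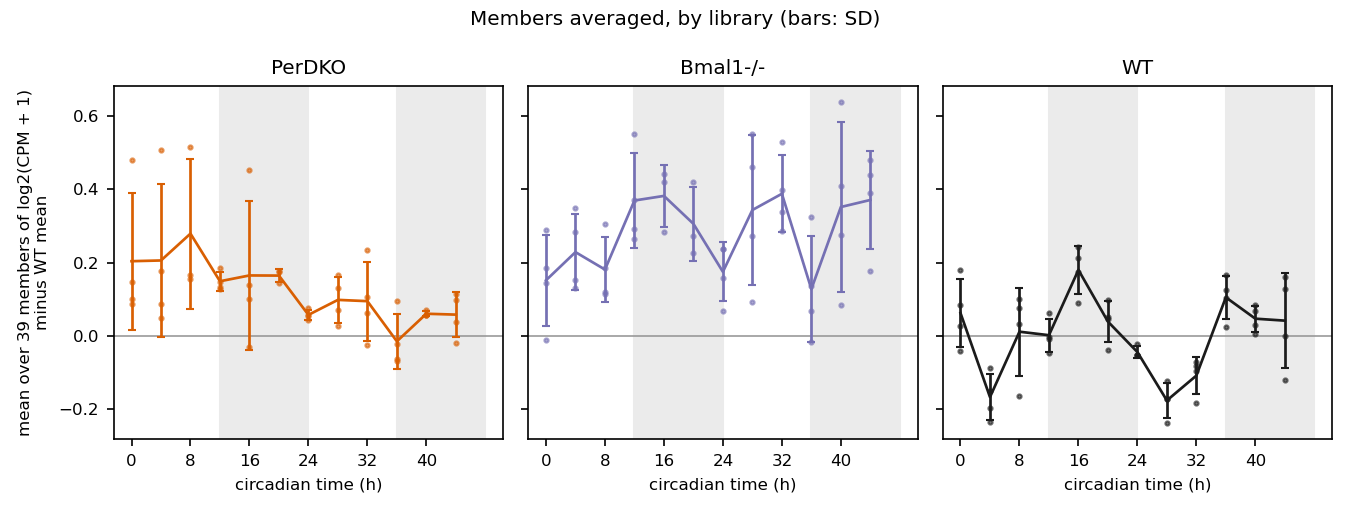
Mean over the 39 genes of log2(CPM + 1) minus the WT mean of each gene (vertical) by circadian time in hours (horizontal), in panels for PerDKO, Bmal1-/- and WT, with a point per library and lines and bars for the mean and SD of each time point. Bmal1-/- means lie between 0.13 and 0.39 at all 12 time points, and WT means between -0.18 and 0.18.

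Part of these genes overlaps others at its 3′ end. It was not stated that strand was used in counting. Overlap may thus have changed the counts of *Nop56*, *Dkc1*, *Nhp2*, *Heatr1*, *Bysl*, *Bop1*, *Ftsj3* and *Noc2l*, by tags added or left out. The genes on the opposite strand are *Idh3b*, *Mpp1*, *Rmnd5b*, *Lgals8*, *Ccnd3*, *Mroh1*, *Ddx42* and *Samd11* in the same order (any exon within 1000 bases before to 100 after the 3′ end, GENCODE vM21 on GRCm38). In GRCm38 *Nolc1* lies on chromosome 19 from 46075847 to 46085543, *Rrp12* on chromosome 19 from 41859483 to 41896153, *Nop2* on chromosome 6 from 125131883 to 125144753, *Nop56* on chromosome 2 from 130274367 to 130279313, *Gnl3* on chromosome 14 from 31012433 to 31019131 and *Npm1* on chromosome 11 from 33152498 to 33164142. The genes with the clearest WT rhythms thus include *Nop56* and *Ftsj3*, which share this limit, and *Nolc1*, *Nop2*, *Rrp12* and *Nop16*, which do not.

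Other genes of ribosome production were read from lists made by role, against 36.9% of all genes called in WT and 50.7% of those with a peak from 12 to 24 h. Of 40 tested further factors of the large subunit 12 cycled in WT, a smaller share than of all genes, and all 12 peaked from 12 to 24 h. *Mrto4*, which encodes a factor of the ribosomal stalk (1.52-fold at 15.5 h, adjusted p = 2.44e-07), *Brix1* (2.11-fold at 18.3 h, adjusted p = 0.000799) and *Rrp1b* (2.17-fold at 18.9 h, adjusted p = 0.00146) led them. Of 40 further small-subunit factors 16 cycled, 10 of them with a peak from 12 to 24 h, such as *Tsr1* (1.66-fold at 18.6 h, adjusted p = 2.28e-05), while *Rcl1* peaked at 7.75 h (2.16-fold, adjusted p = 1.68e-11). Of 13 further RNA polymerase I subunits and initiation factors 7 cycled, 4 of them from 12 to 24 h. *Taf1c*, of the promoter selectivity factor, cycled 2.14-fold with a peak at 19.8 h (adjusted p = 1.33e-05), and *Rrn3*, the gene of the initiation factor that growth signals regulate, 1.44-fold at 11.9 h (adjusted p = 0.0041). Of 18 genes of the RNA exosome and RNase MRP 7 cycled, all from 12 to 24 h, led by *Exosc3* (1.61-fold at 21.6 h, adjusted p = 5.11e-09). Of 8 further factors of small nucleolar particle assembly 3 cycled, and of 20 RNA polymerase III genes 6. None of the genes of these lists was called in PerDKO at 24 or 16 hours or in Bmal1-/- at 24 hours. Of all genes 0.205%, 0.0585% and 0.039% were, in the same order, so this absence is not particular to these lists.

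The genes of the ribosomal proteins themselves were read in the same way. Of 73 tested cytosolic ribosomal protein genes 11 cycled in WT, against 36.9% of all genes, with a median fold of 1.12. In level 50 were higher and 10 lower in PerDKO than in WT (median log2 difference 0.27), against 34% and 31.2% of all genes, and 60 were higher and 4 lower in Bmal1-/- than in WT (median 0.37), against 35.8% and 38.5% of all genes. Set against Bmal1-/-, 8 were higher and 46 lower in PerDKO (median -0.19), against 38.6% and 34.4% of all genes. *Rpl23*, for example, had a log2 difference of 1.02 in PerDKO (adjusted p = 1.49e-52) and *Rpl32* of 1.09 in Bmal1-/- (adjusted p = 9.58e-61). Among the further large-subunit factors 14 were higher and 11 lower in PerDKO than in WT and 19 higher and 6 lower in Bmal1-/- than in WT, and among the exosome and RNase MRP genes 8 and 5 in PerDKO and 12 and 1 in Bmal1-/-. The further small-subunit factors were even, with 13 higher and 17 lower in PerDKO and 13 higher and 14 lower in Bmal1-/-. The further RNA polymerase I genes had 4 higher and 1 lower in PerDKO and 4 and 2 in Bmal1-/-, those of particle assembly 3 and 2 in PerDKO and 3 and 3 in Bmal1-/-, and those of RNA polymerase III 6 and 9 in PerDKO and 9 and 6 in Bmal1-/-. *Rps24*, *Rrp36*, *Gtf3c6* and *Znhit6* are the genes of these lists that differ between the tables most, with Bmal1-/- medians of 2.25, 3.43, 2.35 and 8.43 CPM against WT medians of 319, 24.8, 29.7 and 1.16 CPM.

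*Myc*, whose product activates many of the genes above, cycled 4.26-fold in WT with a peak at 14.2 h (adjusted p = 0.000126), against a median peak of 17 h for the 20 genes. It was not called at 24 hours in PerDKO (1.87-fold, adjusted p = 0.604) or Bmal1-/- (2.36-fold, adjusted p = 0.826), nor at 16 hours in PerDKO (3.4-fold, adjusted p = 0.0767), and its rhythm differed from that of WT in both (adjusted p = 0.00111 and 0.00191). *Myc* ran from 1.63 to 30.9 CPM in PerDKO (median 4.32), 1.79 to 50.3 CPM in Bmal1-/- (median 6.56) and 1.28 to 40.9 CPM in WT (median 7.32), with single libraries far above the rest in each. Its level was lower in PerDKO than in WT (-0.52, adjusted p = 0.0392) and did not pass in Bmal1-/- (0.22, adjusted p = 0.345). Of 9 tested genes of the MYC network 6 cycled in WT, against 36.9% of all genes, and 3 of the 6 had a peak from 12 to 24 h, against 50.7%. In PerDKO 2 were higher and 4 lower than in WT, against 34% and 31.2% of all genes. In Bmal1-/- 2 were higher and 5 lower, against 35.8% and 38.5%. With so few genes these counts are a description.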

How the data were processed

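Liver RNA of 140 libraries was measured by bulk MARS-seq. Per the labels and the study's methods, the authors demultiplexed reads with bcl2fastq, trimmed them with cutadapt, aligned them to mm10 with STAR and used HTSeq to count barcoded molecules for RefSeq genes (versions not given), in a window from 1000 bases before to 100 bases after the 3′ end. The deposited counts are whole numbers in 1 table per genotype. The authors also deposited normalized counts for PerDKO and WT, a signal equal to the counts divided by DESeq2's median-of-ratios factors, and these were used only for that check.

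Counts were tested with edgeR 4.0.16 (R 4.3.3, quasi-likelihood F-test, TMM), with p-values adjusted by Benjamini-Hochberg over 10263 genes that had 2 counts or more in 0.5 or more of every genotype's libraries. A rhythm was fitted in each genotype as cosine and sine terms. Rhythm differences were interaction terms between genotypes, and levels were genotype terms averaged over the 12 time points. A fold is between fitted peak and trough. Calls were made at an adjusted p under 0.05, apart from JTK_CYCLE and harmonic regression, which were run on counts divided by such factors and called at q under 0.2 after the study's threshold. Alternatives were DESeq2 1.42.0, its size factors in edgeR, other filters, limma 3.58.1 on time point means, JTK_CYCLE, harmonic regression, a linear term, days apart, the replicate letter as a block, each letter left out, and, chosen after seeing the data, levels by day and 3 PerDKO libraries left out. The scripts were tested on simulated data. No 2 libraries of a group agreed within sampling noise (lowest chi-square per degree of freedom 3.12 over 204 pairs).

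The members and lists were chosen with earlier results of these data known. Values by library are given for the 8 called genes with the smallest p and the 3 genes with the largest p of the WT rhythm, the 5 called genes with the largest change in each direction of a level, and the 3 with the smallest p of each rhythm difference; of other genes, up to 4 per list and comparison with the smallest p are named, with *Myc*, *Arntl*, *Nr1d1* and *Dbp*. *Rrp36*, *Gtf3c6*, *Znhit6* and single cell type markers were named after their values were seen. The values by library of *Nolc1* in PerDKO and Bmal1-/- were added outside these rules.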

Additional observations from a re-analysis of the deposited data

Results flagged for a closer look

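Within time points of 4 libraries, 3 of 36 sets of values by library had 1 library far from the other 3, where chance sets apart about 1 in 20. *Polr1d* in WT at CT16 had 132 CPM in 1 library and 115, 116 and 117 CPM in the others (gap over range 0.89). *Rrs1* in WT at CT28 had 13.9 CPM in 1 library and 17.2, 17.5 and 17.6 CPM in the others (0.905). *Nolc1* in PerDKO at CT4 had 9.57 CPM in 1 library and 11.5, 11.7 and 11.8 CPM in the others (0.879).

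The 24-hour rhythm differed between PerDKO and WT, by edgeR's test of the difference, in *Nop56* (adjusted p = 0.00115), *Rrp12* (0.00212), *Rrs1* (0.00343), *Imp3* (0.00438), *Nop2* (0.00822), *Fbl* (0.0101), *Nolc1* (0.0109), *Nop14* (0.0268), *Ftsj3* (0.0352), *Nhp2* (0.0365), *Nop58* (0.0378), *Ddx21* (0.0382), *Gnl3* (0.0431) and *Nop16* (0.0444). It differed between Bmal1-/- and WT in *Nop16* (adjusted p = 0.00506), *Rrp12* (0.0113), *Bop1* (0.0205), *Imp3* (0.0243) and *Nolc1* (0.0447). *Nhp2* for PerDKO and *Nolc1* for Bmal1-/- did not pass with any 1 letter left out.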

How the results depend on the processing

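Of the 39 genes, 14 to 17 cycled in WT with 1 letter left out, 9 with limma on the 12 means, 10 on day 1 and 8 on day 2 (2037, 2401 and 1723 of all genes in those 3 fits, and 2782 to 3089 without a letter). At q under 0.2, a looser threshold, harmonic regression called 27 (5562 of all genes) and JTK_CYCLE 23 (4577 of all); the counts of these 2 methods below use it too. No gene of the 39 was called at 12 hours in WT or in either mutant under any alternative. Over all genes, DESeq2 called 4 and a linear term 1 at 12 hours in WT. At 24 hours in PerDKO DESeq2 called 49, the replicate block 8, JTK_CYCLE 8, a linear term 11, fits without a letter 0 to 8 and the fit without the 3 libraries 0. At 16 hours in PerDKO no filter gave 15, DESeq2 118, the replicate block 3, harmonic regression 306, JTK_CYCLE 301, a linear term 0, fits without a letter 0 to 35 and the fit without the 3 libraries 169. At 24 hours in Bmal1-/- no filter gave 10, DESeq2 1, the replicate block 0, harmonic regression 0, JTK_CYCLE 0, a linear term 2 and fits without a letter 0 to 5. The causes were not tested.

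Without a letter, the rhythm difference passed in 7 to 10 of the 39 genes for PerDKO (1609 to 1761 of all) and in 1 to 3 for Bmal1-/- (1167 to 1372 of all), with fewer libraries in each fit. Levels without a letter gave 14 to 15 higher and 8 to 9 lower in PerDKO than in WT, 23 to 26 and 4 to 5 in Bmal1-/- than in WT, and 4 to 6 and 19 to 20 in PerDKO than in Bmal1-/-. Over all genes these fits gave, in the same order, 3111 to 3257 and 2962 to 3065, 3384 to 3562 and 3639 to 3851, and 3545 to 3832 and 3308 to 3461. On day 2 alone 11 were higher in PerDKO than in WT and 2 than in Bmal1-/-. *Gnl3* in PerDKO against Bmal1-/- was -0.21 over both days and 0.058 on day 1 (adjusted p = 0.56).

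The letters did not pair the libraries (median correlation of deviations with the same letter -0.0021 in PerDKO, 0.0084 in Bmal1-/- and 0.025 in WT). With the replicate block 20 genes cycled in WT (3800 of all genes). The rhythm difference passed with it in 15 for PerDKO (2437 of all) and 4 for Bmal1-/- (1916 of all). Levels gave 17 higher and 9 lower in PerDKO than in WT, and 26 and 5 in Bmal1-/- than in WT. Set against Bmal1-/-, 6 were higher and 20 lower in PerDKO. Over all alternatives the levels of all genes gave, in the same order, 2688 to 3495 and 2734 to 3306, 3177 to 3672 and 3293 to 4129, and 3105 to 4106 and 2977 to 3604. *Nop10*, *Ncl*, *Npm1*, *Npm3* and *Wdr12* had a median of 5 or fewer counts per library in at least 1 genotype, and what that depth can detect was not tested.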

Other observations

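*Npm1* in PerDKO was not level over the 48 h. Its mean was 8.52 CPM at CT0, 16.1 CPM at CT4, 10.8 CPM at CT8 and 8.22 CPM at CT20, and on the second day 5.17 CPM at CT24, 3.58 CPM at CT32 and 1.43 CPM at CT44. Its log2 difference from WT in Bmal1-/- was 1.97 on day 1 and 2.14 on day 2. *Gnl3* in PerDKO stood 0.96 above WT on day 1 and 0.64 on day 2. These days were compared after the values were seen, with no test between them.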
